A study of Homo sapiens with 6 samples.

Results

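The genes described are the nuclear genes for subunits of the mitochondrial respiratory chain and ATP synthase, with cytochrome c. They were taken by symbol patterns, which matched 126 of the 32078 named genes counted in the series. Earlier results of these data were known when this was done. Of these, 36 belonged to complex I, 4 to complex II, 15 to complex III, 27 to complex IV and 43 to complex V, and the last was CYCS. By GENCODE v29, 85 of them are protein-coding and 41 are pseudogenes whose symbols fit the same patterns. A filter on low counts was passed by 84, of which 79 were protein-coding. NDUFA4 is counted with complex IV, to which its product is now assigned.

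The libraries were poly(A) RNA of PANC-1 cells, a long-used human line grown from a carcinoma of the pancreas. The 3 control-labelled libraries carry the treatment label "none". The 3 EV-labelled libraries came from cells that received extracellular vesicles (EVs) of cancer-associated fibroblasts, the activated fibroblasts of tumour stroma. Titles and treatment labels set the groups, because the protocol text speaks of vesicles for every library, and no source used here gives a dose or a time. Separate cultures are not named in the labels, and the p-values cover only library-to-library spread, part of which may be technical. Totals ranged from 21647493 to 27498709 counts of named genes. The keratin genes KRT8 and KRT18 were abundant in all libraries, with 28473 to 96290 counts each, whereas the epithelial genes EPCAM and CDH1 were at 0 in each library, where the floor of 3 counts is 0.110 to 0.138 CPM (CPM is the count relative to the scaled library size).

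The respiratory chain passes electrons from NADH (complex I) and succinate (complex II) through ubiquinone to complex III, then by cytochrome c to complex IV, which reduces oxygen. Complexes I, III and IV pump protons across the inner mitochondrial membrane, and complex V, the ATP synthase, uses the gradient to make ATP. Mitochondrial DNA encodes a few membrane subunits of complexes I, III, IV and V. The nucleus encodes all others, including the whole of complex II.

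Subunit genes were slightly higher in the EV-labelled libraries in every complex, and 2 genes of complex I fell. Of 84 tested members, 45 (53.6%) rose and 2 (2.38%) fell, where 20.2% of all 14670 tested genes rose and 20.7% fell (adjusted p under 0.05, edgeR quasi-likelihood test). Of the 79 tested protein-coding members 57% rose and 2.53% fell, where 23.6% of 11999 tested protein-coding genes rose and 20.2% fell. The median log2 fold change was 0.21 over the members, -0.01 over all tested genes and 0.02 over tested protein-coding genes. The changes were small: 3 members rose at least 1.5-fold, ATP5ME, NDUFB8 and UQCR10. In 56 members all 3 EV-labelled libraries lay above all 3 control-labelled ones and in 2 all lay below, which 25.1% and 25.5% of all tested genes did. In bulk RNA, fewer cells of a type and less RNA per cell cannot be told apart. Of the calls higher, 34 of 45 held in all 16 other settings tried at the same threshold.

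Summed over the 85 protein-coding members, the level was 9416, 9429 and 9427 CPM in control-labelled replicates 1 to 3, and 10940, 10740 and 10200 CPM in EV-labelled replicates 1 to 3. The control-labelled sums were nearly equal, and EV-labelled replicate 3 lay closest to them. The same order showed gene by gene. Over the 76 protein-coding members with a mean of at least 5 CPM, the median log2 ratio to the control mean was 0.26, 0.26 and 0.12 in the 3 EV-labelled libraries. Without EV replicate 3, 50 members were higher, and without EV replicate 2 the number was 38.

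**Figure D1:**
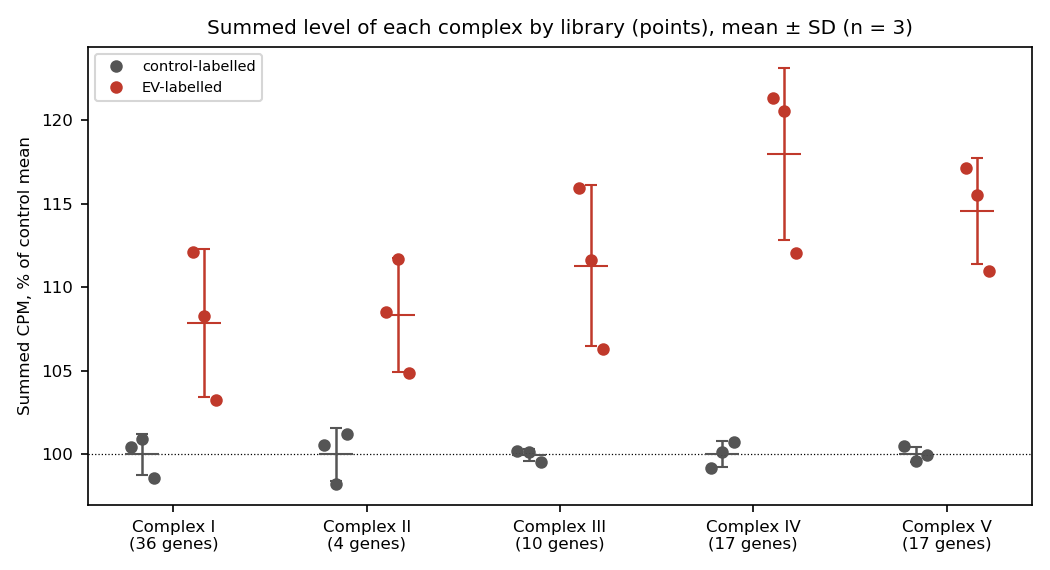
Summed CPM of the protein-coding members of each complex, as a percent of the control mean, for each library (points), with mean and SD over 3 libraries. The EV-labelled sums lie above the control-labelled ones in each complex, with mean ratios from 1.08 (complexes I and II) to 1.18 (complex IV).

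By complex, the summed level was 2768 ± 34.6 CPM in the control-labelled and 2986 ± 123 CPM in the EV-labelled libraries for complex I, and 292.3 ± 4.66 against 316.8 ± 10 CPM for complex II (SD, n = 3 each). It was 1299 ± 4.68 against 1446 ± 62.9 CPM for complex III, 1610 ± 12.3 against 1899 ± 82.8 CPM for complex IV and 3286 ± 14.6 against 3764 ± 105 CPM for complex V. The sums did not overlap between the groups in any complex. They were not tested, since a few abundant genes dominate them. The share of tested members that rose was 51.4% in complex I, 50% in complex II, 36.4% in complex III, 71.4% in complex IV and 52.6% in complex V, and the differences between complexes were not tested.

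**Figure D2:**
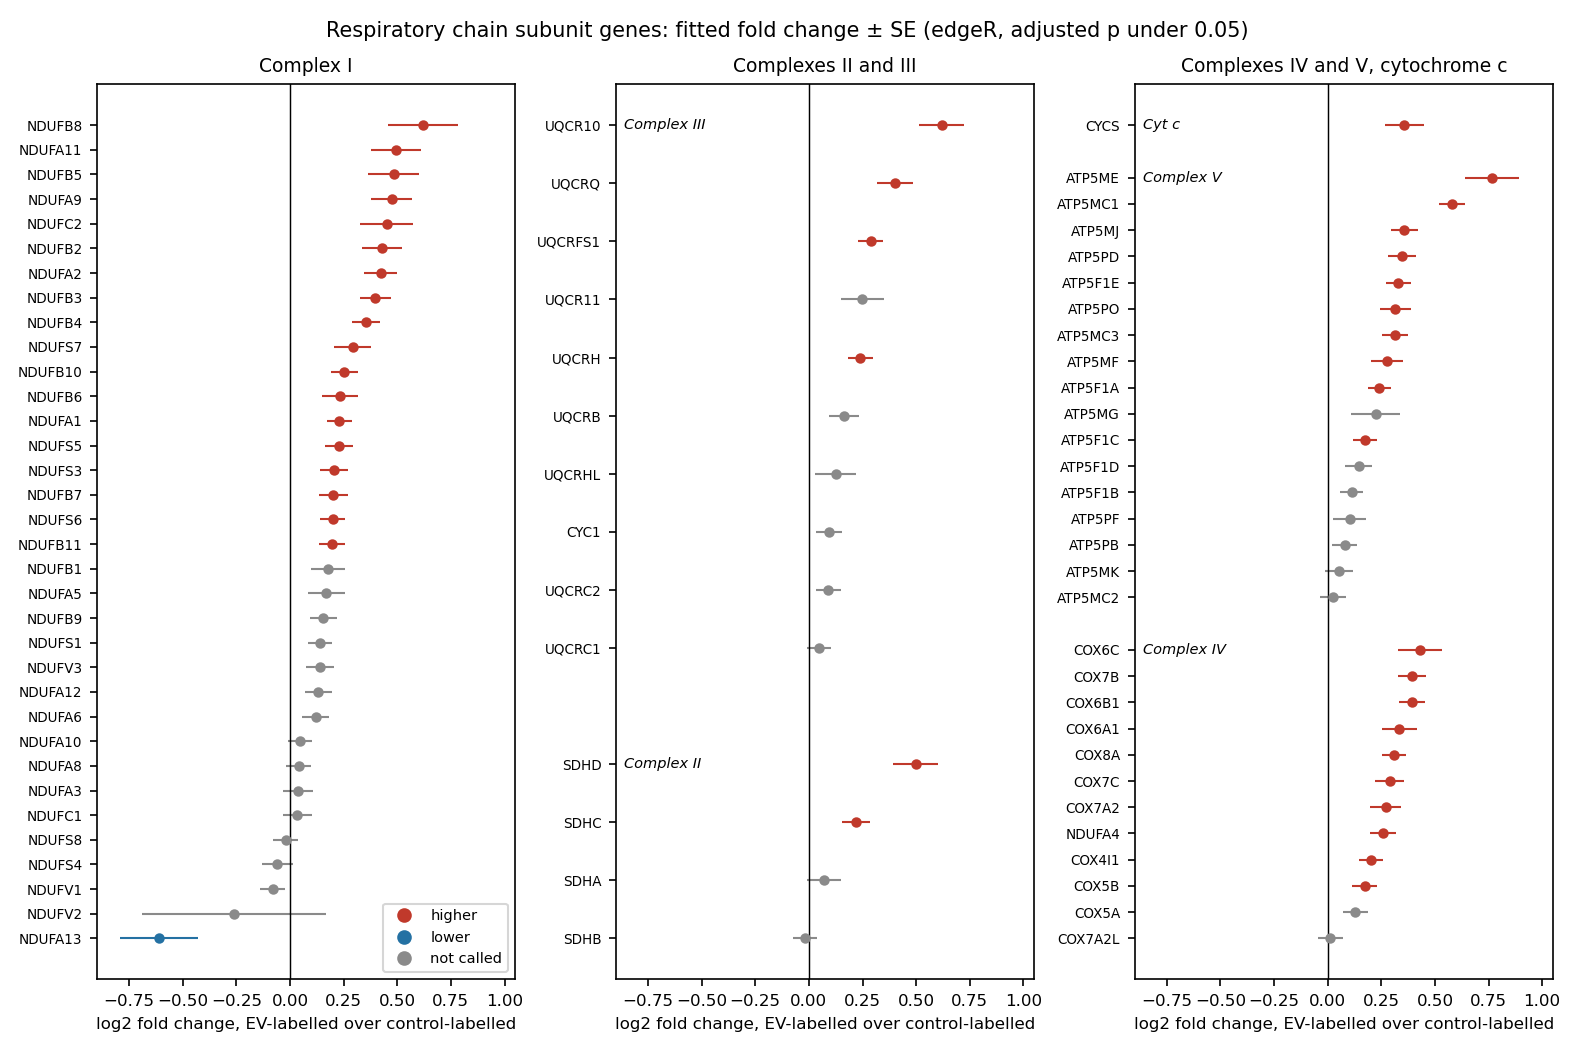
Fitted log2 fold change (EV-labelled over control-labelled, points) with its SE (bars) for 78 of the 79 tested protein-coding members, sorted within each complex. Red points rose, blue points fell and grey points did not pass. The blue point is NDUFA13 of complex I.

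Promoter sequence is shown for 6 members that changed to different degrees while carrying binding motifs of factors known for respiratory genes. They were chosen after the values were seen. Nuclear respiratory factor 1 (NRF1), the ETS factor GABP, YY1, CREB and the oestrogen-related receptors (ERR) are known regulators of such genes. The 200 bases before the start site follow, 5′ to 3′ on the gene's strand, from RefSeq on GRCh38.p14. Capitals mark GCATGCGC (NRF1), CCGGAAGT (ETS) and TGACGTCA (CREB) on either strand, which in SDHD includes 2 NRF1 matches that overlap each other. The positions are chr17:48892587-48892786 (plus strand) for ATP5MC1, chr12:53676084-53676283 (minus strand) for ATP5MC2, chr4:674277-674476 (minus strand) for ATP5ME, chr11:112086673-112086872 (plus strand) for SDHD, chr1:17054033-17054232 (minus strand) for SDHB and chr7:25125261-25125460 (minus strand) for CYCS.
ATP5MC1: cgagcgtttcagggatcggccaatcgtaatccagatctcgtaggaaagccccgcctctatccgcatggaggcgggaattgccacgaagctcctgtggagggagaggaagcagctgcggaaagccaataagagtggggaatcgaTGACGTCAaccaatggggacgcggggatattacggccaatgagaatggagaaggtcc
ATP5MC2: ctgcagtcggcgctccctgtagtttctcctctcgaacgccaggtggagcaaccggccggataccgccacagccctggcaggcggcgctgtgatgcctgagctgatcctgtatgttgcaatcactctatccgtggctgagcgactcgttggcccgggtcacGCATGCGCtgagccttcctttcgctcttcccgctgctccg
ATP5ME: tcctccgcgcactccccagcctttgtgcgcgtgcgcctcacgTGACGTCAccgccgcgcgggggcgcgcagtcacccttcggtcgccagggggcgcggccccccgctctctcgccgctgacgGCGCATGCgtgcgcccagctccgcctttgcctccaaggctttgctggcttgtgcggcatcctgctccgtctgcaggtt
SDHD: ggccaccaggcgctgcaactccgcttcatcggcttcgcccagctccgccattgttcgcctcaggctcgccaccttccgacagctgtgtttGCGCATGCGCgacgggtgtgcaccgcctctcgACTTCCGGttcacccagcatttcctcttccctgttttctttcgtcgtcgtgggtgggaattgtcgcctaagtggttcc
SDHB: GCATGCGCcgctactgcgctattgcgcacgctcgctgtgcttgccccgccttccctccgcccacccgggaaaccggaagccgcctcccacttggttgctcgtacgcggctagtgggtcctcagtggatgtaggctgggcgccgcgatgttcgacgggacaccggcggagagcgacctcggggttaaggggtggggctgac
CYCS: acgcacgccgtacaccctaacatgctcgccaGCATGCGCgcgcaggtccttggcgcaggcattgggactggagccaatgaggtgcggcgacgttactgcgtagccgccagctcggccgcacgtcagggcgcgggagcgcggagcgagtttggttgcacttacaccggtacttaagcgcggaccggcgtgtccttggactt

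A promoter window (250 bases before to 50 after the start site) was found for 64 of the 84 tested members, with 77 windows among them. Members were counted by gene, with a match in any window, and all promoters by window. The shares below are thus in unlike units, which favours the members. The NRF1 motif was in the windows of 15 of the 64 (23.4%), against 3.05% of all 35116 promoters in the table, which include those of non-coding genes. The ETS motif was in 12 (18.8%, against 4.14%), the YY1 motif in 8 (12.5%, against 1.2%) and the CREB motif in 5 (7.81%, against 1.85%). TCAAGGTCA of ERR was in 1, SDHD (1.56%, against 0.353%), and TATAAA in 5 (7.81%, against 11.5%), all on both strands. Of the members with the NRF1 motif 9 of 15 rose, and of those without it 28 of 49. A match is a run of letters and not a measured binding site. SDHB and ATP5MC2, printed above with the NRF1 motif, did not pass the test, while SDHD, CYCS and ATP5ME rose.

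Complex I takes electrons from NADH on a peripheral arm that reaches into the matrix and pumps protons in its membrane arm. Of its 35 tested members 18 rose and 2 fell, with a median log2 fold change of 0.20. Genes for accessory subunits of the membrane arm rose in 13 of 20 (median 0.23). Those of the matrix arm rose in 3 of 8 tested (median 0.15), and those for the 7 nuclear core subunits, which carry the flavin and iron-sulphur clusters or form the quinone site, rose in 2 (median -0.02). These shares were 65%, 37.5% and 28.6%, beside 20.2% of all tested genes and 23.6% of tested protein-coding genes. The differences between the parts were not tested.

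Among core subunits, NDUFS3 rose by 0.21 ± 0.06 (adjusted p = 0.0154) and NDUFS7, which holds the iron-sulphur cluster nearest to ubiquinone, by 0.29 ± 0.09 (adjusted p = 0.0102). Both calls were lost in some settings with 1 library left out. NDUFS3 was at an adjusted p of 0.0902 without EV replicate 1 and at 0.0558 without control replicate 2. NDUFS7 was at 0.0574 without control replicate 3, and at 0.0555 without EV replicate 2. NDUFS1, the largest subunit, was at 149, 141 and 148 against 158, 159 and 165 CPM. These groups did not overlap, yet it did not pass (0.14 ± 0.06, adjusted p = 0.0516), and it passed in 6 of 16 other settings. NDUFV1, which binds NADH and the flavin, was at -0.08 ± 0.06 and NDUFS8 at -0.02 ± 0.06, with overlapping groups.

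NDUFV2 and NDUFA7 could hardly be measured. NDUFV2 had 6 to 13 counts in a library (log2 fold change -0.26 ± 0.43) and NDUFA7 had 0 to 9 and was not tested. The pseudogene NDUFV2P1 held 90 to 118 counts in the same libraries, and reads of near-identical copies cannot be assigned to 1 of them, so NDUFV2 is uncertain.

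NDUFA13, an accessory subunit also known as GRIM-19, had 2.79, 3.55 and 3.08 CPM in the control-labelled libraries and 2.29, 2.06 and 1.81 CPM in the EV-labelled ones. The groups did not overlap, and it fell by 0.61 ± 0.18 on the log2 scale (adjusted p = 0.0106). Leaving out control replicate 2 (adjusted p = 0.0579) or EV replicate 3 (adjusted p = 0.0549) ended the call, as did DESeq2 (adjusted p = 0.053). Only 45 to 97 counts were behind it, and its exons overlap 2 genes on the same strand. AC011448.1, over 437 bases, had 9, 2 and 4 counts in the control-labelled and 13, 9 and 14 in the EV-labelled libraries, and YJEFN3, over 131 bases, had 116, 127 and 129 against 69, 53 and 62. Reads of the overlaps cannot be assigned to 1 of these genes, so NDUFA13 is uncertain.

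Among accessory subunits, NDUFB8 rose most, from 3.47, 2.81 and 4.11 to 5.51, 6.0 and 4.5 CPM (0.62 ± 0.16, adjusted p = 0.0049). NDUFA11, of the membrane arm, was at 6.43, 6.11 and 7.55 against 9.95, 9.40 and 8.96 CPM (0.49 ± 0.12, adjusted p = 0.00231). NDUFB5 was at 10.8, 12.5 and 16.2 against 18.6, 19.2 and 17.6 CPM (0.48 ± 0.12), and NDUFA9, a matrix-arm subunit near the quinone site, was at 0.47 ± 0.10. The EV-labelled libraries lay above the control-labelled ones in all 4 genes. NDUFB8, NDUFA11 and NDUFA9 share exons with other annotated genes, and NDUFB8 had only 77 to 149 counts. NDUFC2, NDUFB2, NDUFA2, NDUFB3 and NDUFB4 rose by 0.35 (NDUFB4) to 0.45 (NDUFC2), and the 7 other accessory members that rose did so by 0.20 (NDUFB11, NDUFS6) to 0.25 (NDUFB10). Of these 7 members, 4 lost their call in some settings with 1 library left out. NDUFB6 lost its call without control replicate 1 or 2 or EV replicate 1 or 2 (adjusted p 0.0731 to 0.143) and under upper-quartile scaling. NDUFB7 lost it without control replicate 1 (0.105) or EV replicate 1 (0.121), NDUFB11 without control replicate 3 (0.0564) or EV replicate 1 (0.0889), and NDUFS5 without EV replicate 2 (0.0529). RBM10, on the other strand, overlaps 44.9% of the exon length of NDUFB11.

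Complex II oxidises succinate to fumarate and links the chain to the tricarboxylic acid cycle. Its genes divided by part: the membrane anchors SDHC and SDHD rose, and the catalytic subunits SDHA and SDHB did not pass. SDHD had 29.7, 30.5 and 42.3 CPM in the controls and 48.9, 52.5 and 43.6 CPM in the EV-labelled libraries, a log2 fold change of 0.50 ± 0.11 (adjusted p = 0.000902). Its highest control-labelled library nearly reached its lowest EV-labelled one, and its exons overlap AP002884.3 on the same strand by 319 bases and TIMM8B on the other strand by 26. SDHC was at 66.4, 63.5 and 68.3 against 80.6, 79.6 and 70.9 CPM (0.22 ± 0.07, adjusted p = 0.0105), which was lost without EV replicate 1 (adjusted p = 0.0509) and without EV replicate 2 (adjusted p = 0.0543). SDHA, the flavoprotein that holds the succinate site, was at 0.07 ± 0.08, and SDHB, the iron-sulphur subunit, was at 172, 170 and 162 against 164, 170 and 165 CPM (-0.02 ± 0.06, adjusted p = 0.845). The difference between anchor and catalytic genes was not tested.

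**Figure D3:**
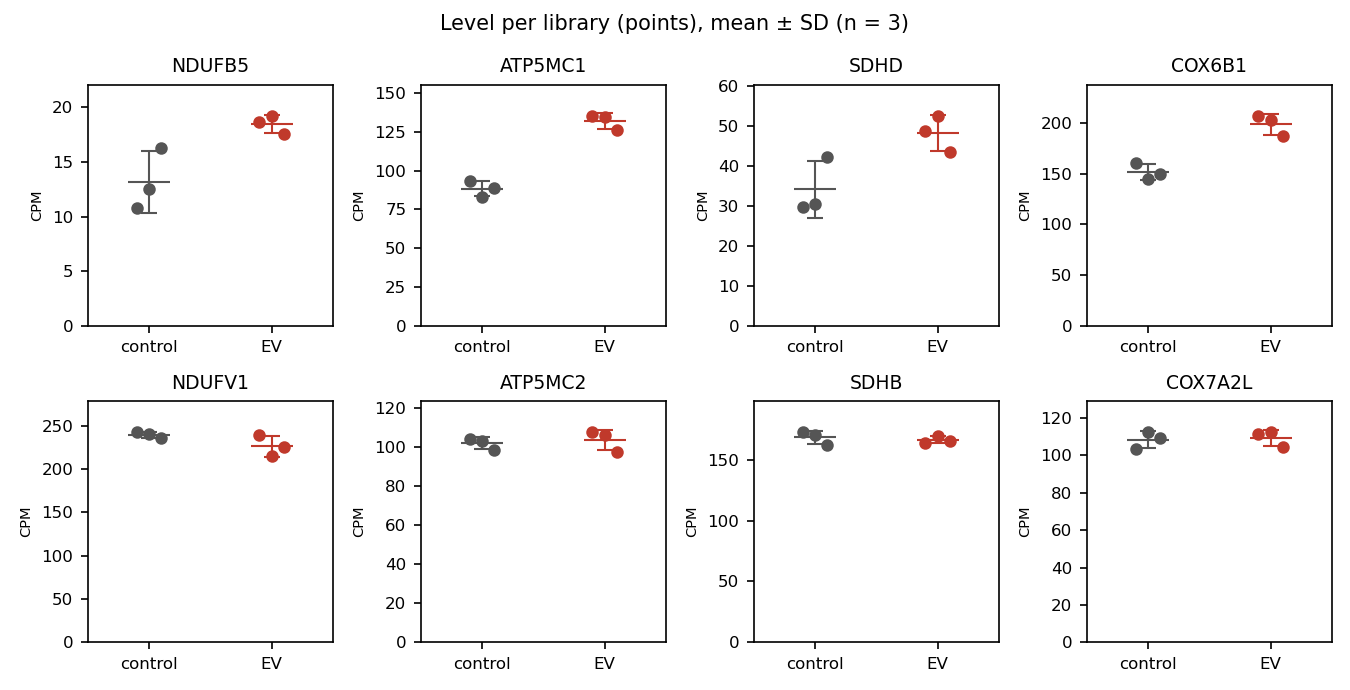
Level (CPM) of 8 members in each library (points), with mean and SD over 3 libraries, on axes that start at 0. In each column the upper gene changed (NDUFB5, ATP5MC1, SDHD and COX6B1, all higher) and the lower gene, of the same complex, did not pass the test.

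Complex III moves electrons from ubiquinol to cytochrome c. Of 11 tested members 4 (36.4%) rose, and the 7 others had fitted values above 0. Of all tested genes, 20.2% rose and 49% had a fitted value above 0. UQCR10, a small membrane subunit, was at 11.4, 9.76 and 11.7 against 17.9, 17.9 and 14.7 CPM (0.62 ± 0.11, adjusted p = 0.000128). UQCRQ followed at 0.40 ± 0.08, UQCRFS1, the Rieske iron-sulphur protein, at 0.29 ± 0.06 (adjusted p = 0.000795) and UQCRH, the hinge protein, at 0.24 ± 0.06. In these 4 the groups did not overlap. The large core proteins UQCRC1 (0.05 ± 0.06) and UQCRC2 (0.09 ± 0.06) and cytochrome c1, CYC1 (0.09 ± 0.06), did not pass, and UQCR11 (0.25 ± 0.10, adjusted p = 0.0553) passed in 4 of 16 other settings. UQCRH and UQCRHL are near-identical, so their counts (4255 to 6181 and 278 to 329) are uncertain against each other. CYCS, the electron carrier between complexes III and IV, was at 140, 162 and 202 against 208, 232 and 208 CPM. The control-labelled libraries were spread widely but stayed below the EV-labelled ones, and CYCS rose by 0.36 ± 0.09 (adjusted p = 0.00417), a call lost with DESeq2 (adjusted p = 0.0628).

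Complex IV, cytochrome c oxidase, gives the electrons to oxygen at subunits made in the mitochondrion, and the nuclear genes encode its surrounding subunits. Of 12 tested protein-coding members 10 rose, and the 2 others were fitted above 0, COX7A2L only just, since it reached -0.02 in another setting. Of 11999 tested protein-coding genes, 23.6% rose and 6280 were fitted above 0. COX6B1, which helps to hold the dimer, was at 160, 145 and 149 against 207, 203 and 187 CPM (0.39 ± 0.06, adjusted p = 4.6e-05). COX6C (0.43 ± 0.10), COX7B (0.39 ± 0.06), COX8A (0.31 ± 0.06) and COX6A1 (0.33 ± 0.08) were of similar size. Other genes on the same strand overlap 34.5% of the exon length of COX8A and 13% of that of COX6A1. The pseudogene COX6A1P2 had 239 to 339 counts, beside 606 to 949 for COX6A1, so these 2 genes are less certain. COX4I1, the largest nuclear subunit of complex IV, was at 466, 475 and 475 against 558, 555 and 514 CPM (0.20 ± 0.06, adjusted p = 0.00758). COX7A2 (0.27 ± 0.07), COX7C (0.29 ± 0.07) and NDUFA4 (0.26 ± 0.06) rose too, with no overlap between the groups.

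COX5A (0.13 ± 0.06, adjusted p = 0.0822) did not pass. COX5B passed at 0.17 ± 0.06 (adjusted p = 0.0242) and was lost without control replicate 1 or 3 or EV replicate 1 or 2, at adjusted p = 0.0656 to 0.0933. COX7A2L, which joins complexes III and IV into supercomplexes and is not a standard subunit, was at 104, 112 and 109 against 111, 112 and 104 CPM (0.01 ± 0.06, adjusted p = 0.894). The isoforms of other tissues were at or near 0. COX4I2, a lung and hypoxia isoform, and COX6A2, a heart and muscle isoform, had 0 counts throughout, and COX6B2, COX7A1 and COX8C had at most 4. COX7B2 was not analysed here. The pseudogene COX5AP2 had the highest fitted value in the complex (0.75 ± 0.46, adjusted p = 0.205) on 4 to 13 counts.

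Complex V turns a ring of c subunits in the membrane and makes ATP in its F1 head. Of 17 tested protein-coding members 10 rose, and the 7 others had fitted values above 0. Of 11999 tested protein-coding genes, 23.6% rose and 6280 were fitted above 0. By part, 3 of 5 F1 genes, 2 of 4 peripheral stalk genes and 5 of 8 membrane genes rose, beside 20.2% of all tested genes. The differences between these parts were not tested. The catalytic subunit ATP5F1B was at 994, 991 and 1040 against 1106, 1090 and 1070 CPM. Its groups did not overlap, yet it did not pass (0.11 ± 0.05, adjusted p = 0.11), and it passed with DESeq2 (adjusted p = 0.0292) and after the correction for GC content and length (adjusted p = 0.0384). Its partner ATP5F1A was at 704, 691 and 678 against 822, 827 and 799 CPM and rose (0.24 ± 0.05, adjusted p = 0.0015). ATP5F1C, the rotating shaft, was at 0.18 ± 0.06 (adjusted p = 0.0162), lost without EV replicate 2 (adjusted p = 0.0815). ATP5F1E of the central stalk (0.33 ± 0.06), ATP5PD and ATP5PO of the peripheral stalk (0.35 ± 0.06 and 0.32 ± 0.07) and ATP5MJ of the membrane part (0.36 ± 0.06) rose. ATP5MF rose by 0.28 ± 0.08, a call lost without EV replicate 2 (adjusted p = 0.0672). ATP5MK (0.05 ± 0.06) did not pass, nor did the pseudogene ATP5MFP2 (-0.24 ± 0.25, on 31 to 49 counts).

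The 3 genes for subunit c encode the same mature protein behind different import sequences, and they moved apart. ATP5MC1 had 93.3, 83.2 and 88.9 CPM in the controls and 135, 135 and 126 CPM in the EV-labelled libraries, a rise of 0.58 ± 0.06 (adjusted p = 6.24e-07), the lowest adjusted p of all members. ATP5MC3 rose by 0.31 ± 0.06 (adjusted p = 0.000425). ATP5MC2 was at 104, 103 and 98.7 against 108, 106 and 97.8 CPM (0.03 ± 0.06, adjusted p = 0.771), with overlapping groups. Of the counts of the 3 genes, ATP5MC1 took 19.6% ± 0.86 in the control-labelled and 23.6% ± 0.51 in the EV-labelled libraries (SD, n = 3 each), and ATP5MC2 took 22.65% ± 0.69 and 18.55% ± 0.45. Neither share overlapped between the groups, at p = 0.1 in a two-sided exact permutation test, the smallest value that 3 against 3 can give. ATP5MC3 kept 57.7% ± 0.92 and 57.9% ± 0.92 (exact permutation p = 0.9). As printed above, a CREB motif was found before the start site of ATP5MC1 and an NRF1 motif before that of ATP5MC2.

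ATP5ME, a small membrane subunit of the synthase dimer, had the highest fold change of all tested members. It was at 7.20, 8.48 and 8.91 against 13.6, 16.6 and 11.8 CPM, 1.70-fold higher (log2 0.77 ± 0.12, adjusted p = 7.53e-05). The groups were well apart, on 168 to 368 counts. Of its annotated exon length, 61.6% overlaps MYL5 on the other strand, which had 268, 334 and 362 against 230, 194 and 225 counts. The library kit marks strand, per the labels, but no source used here says that the counting used it, so ATP5ME is uncertain. ATP5IF1, the inhibitor of the synthase and outside the symbol patterns, fell from 120, 120 and 103 to 106, 90.8 and 94.9 CPM (-0.23 ± 0.07, adjusted p = 0.0145), with overlapping groups.

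Across the 79 protein-coding members, genes with short coding sequences had the higher fold changes (Spearman rho -0.40, Pearson r -0.37 with log2 length, across genes that are not independent replicates). Of 46 members with under 500 coding bases 31 rose (median log2 fold change 0.26), and of 11 with over 1000 coding bases 2 rose (median 0.09). ATP5F1A and NDUFA9 were the 2 long genes that rose. The same direction held over all tested protein-coding genes, of which 33.4% of those under 500 coding bases rose (median 0.11) and 20.5% of those over 1000 (median -0.01). When counts were corrected for GC content and exon length in each library, 53 members rose and 2 fell, with a median of 0.22. That correction did not use coding length, whose part in the result was not tested. With exon length the members' fold changes had a Spearman rho of -0.09. With mean CPM the Spearman rho was -0.31 and the Pearson r with log2 CPM was -0.09. Coding length is thus not the only trait that went with fold change by rank, and the part of level was not tested.

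**Figure D4:**
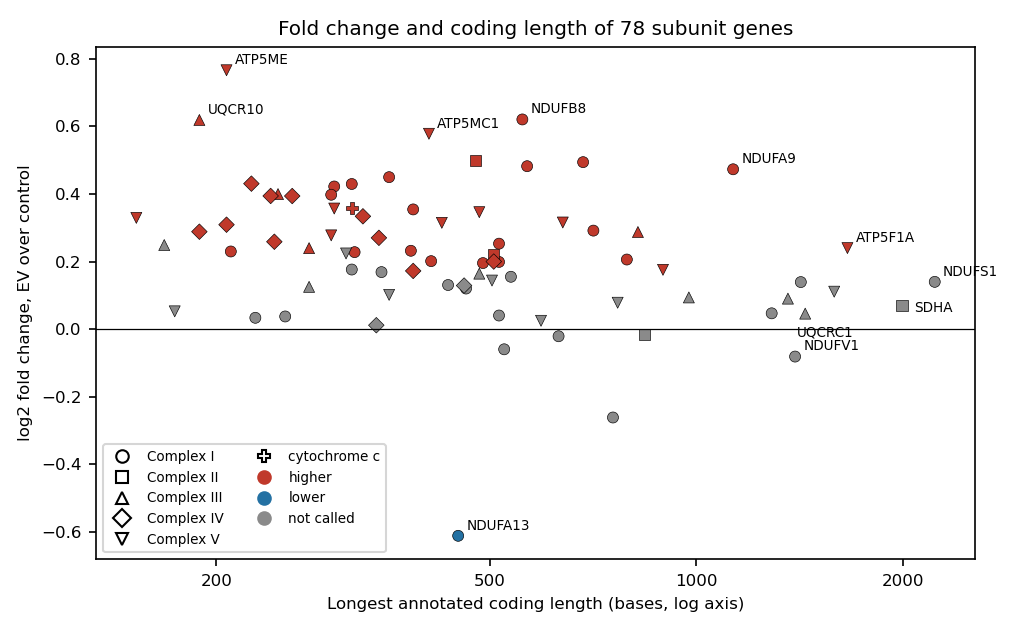
Fitted log2 fold change against the longest annotated coding length (log axis) for 78 of the 79 tested protein-coding members, with shapes for complexes and colours for calls. Most genes drawn over 1000 bases lie near 0, with NDUFA9 and ATP5F1A above.

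Exons of 46 members overlap those of other annotated genes. Of those tested, 27 of 43 rose and 1 fell (median log2 fold change 0.24). Of the members without such overlap, 18 of 41 rose and 1 fell (median 0.17). Of all tested genes, 20.2% rose and 20.7% fell. The 5 tested pseudogenes were not called, and all of them are among the 41, so the groups also differ in gene type. The difference between the groups was not tested.

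The mitochondrially encoded partners, made in the organelle and assembled with the nuclear subunits, showed no common direction. Of their 13 genes 2 (15.4%) rose, 1 fell and 10 did not pass, with a median log2 fold change of -0.01. Of all tested genes, 20.2% rose and 20.7% fell. MT-ND3 was at 198, 222 and 206 against 323, 333 and 266 CPM (0.56 ± 0.07, adjusted p = 8.43e-06). MT-ND2 rose by 0.34 ± 0.09 and MT-ND6 fell by 0.35 ± 0.11, both with overlapping groups. Transcripts of the mitochondrial genome took 0.749% to 1.06% of counts in the control-labelled and 0.748% to 1.04% in the EV-labelled libraries.

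Assembly factors build the complexes without being part of them. The counts that follow stand beside 20.2% of all tested genes higher and 20.7% lower. Of tested protein-coding genes, 23.6% were higher and 20.2% lower. For complex I, 6 of 18 rose and 0 fell, and the 4 with the lowest adjusted p were NDUFAF8 (0.57 ± 0.07), DMAC2 (0.22 ± 0.06), COA1 (0.21 ± 0.06) and TMEM126B (0.27 ± 0.08). For complex II, SDHAF1 (0.49 ± 0.10) and SDHAF2 rose among 4. For complex III, UQCC2, LYRM7 and BCS1L, which inserts the Rieske protein, rose and TTC19 fell (-0.29 ± 0.07) among 6. For complex IV, 9 of 23 tested rose, among them the copper chaperones COX17 (0.44 ± 0.09) and SCO1 (0.39 ± 0.07), COA3 and COX14, and COX19 (-0.37 ± 0.08) and COA5 fell. For complex V, 3 of 5 rose. They were TMEM242, ATPAF2, which chaperones F1, and TMEM70, which helps to build the c ring and was at 21.9, 19.1 and 22.4 against 33.9, 36.4 and 34.2 CPM (0.72 ± 0.08, adjusted p = 1.14e-06).

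Of 13 tested regulators of respiratory genes and mitochondrial DNA expression, 4 (30.8%) rose and 0 fell, where 20.2% of all tested genes rose and 20.7% fell. Among tested protein-coding genes, 23.6% rose and 20.2% fell. TFAM packs mitochondrial DNA and helps to start its transcription. It was at 61.5, 56.4 and 66.8 against 86.3, 91.6 and 88.8 CPM (0.53 ± 0.07, adjusted p = 4.78e-06). PPARGC1B, a coactivator of respiratory genes, rose by 0.44 ± 0.10, NRF1 by 0.33 ± 0.08 (adjusted p = 0.00261) and TFB2M by 0.22 ± 0.08. The groups of TFB2M overlapped, and those of the 3 others did not. PPARGC1A had 0 counts in all 6 libraries. GABPA (0.12 ± 0.07), YY1 (0.04 ± 0.06) and ESRRA (0.09 ± 0.06) did not pass. They were named because their motifs were searched.

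Markers of fibroblasts, the source of the vesicles, were mostly absent. Of 9 counted in the series, DCN, LUM, THY1 and POSTN had 0 counts in all libraries, and COL1A1 and PDGFRA had at most 3. PDGFRB had 3, 5 and 13 counts in the control-labelled and 0, 0 and 2 in the EV-labelled libraries. COL3A1 was present, with 408 to 529 counts, and was not called. The summed level of the 9 fibroblast markers was 115 to 141 CPM in the control-labelled and 197 to 216 CPM in the EV-labelled libraries. It came mostly from COL1A2, the 1 of 2 tested that rose. Of 3 tested epithelial genes, KRT19 fell. The part of these markers in the results was not tested.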

How the data were processed

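Poly(A) RNA of 6 libraries was sequenced. TopHat and RSEM, with hg19 as genome build, are listed in the submitters' processing notes, but no version or role. The authors deposited raw counts per gene for 32453 features in whole numbers. Of these, 375 assembled loci without a gene name, with 0.099% to 0.134% of counts, were left out. The authors also deposited a table of mean log2 abundances, log2 fold changes, p-values and q-values, whose sign is control over EV. With it turned, 48 members had a q under 0.05 and a higher EV mean in the authors' deposited table and 2 a lower one, with 0 opposite calls. The 48 include the pseudogene ATP5MC1P2, which was not tested here. The authors' own mark of change was given to only 2 members, the pseudogenes ATP5MC1P2 and COX5BP6, and to no protein-coding member.

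The test was edgeR's (version 4.0.16, R 4.3.3; glmQLFit and glmQLFTest, TMM, filterByExpr, prior count 0.125) on counts of 14670 genes, with Benjamini-Hochberg adjustment. SE is the coefficient over the square root of F. CPM used TMM factors. On simulated counts the test called 44% of genes changed 1.25-fold and 96% of those changed 1.5-fold, and 18 unchanged genes, so small changes among members can be missed. The SE takes in library-to-library spread as well as counting error, and the floors reflect counting only.

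Members and lists were chosen with earlier results of these data known. Named by rule were the 4 highest and 3 lowest fold changes in each complex (pseudogenes included), members called lower, core subunits and isoforms, and up to 4 called genes per further list and direction. Others named were chosen after their values were seen. Gene types, coding lengths and overlaps came from GENCODE v29 (GRCh38), with GC content and length for 99.26% of tested genes. The labels do not say whether replicate numbers pair libraries, and the reported test did not pair them. Alternatives were other scalings, filters and tests (DESeq2 1.42.0, limma-voom 3.58.1), each library left out, a replicate block, a stricter threshold, assembled loci kept, and a correction for GC content and length. Counts over members without exon overlap and over protein-coding members were added after the data were seen. Some results are not reported here by gene, and the counts given include them.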

Additional observations from a re-analysis of the deposited data

How the results depend on the processing

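No called member changed direction in any setting, while the fitted values of COX7A2L, NDUFA3, NDUFS4, NDUFS8, NDUFV2 and SDHB, none of them called, lay on both sides of 0 between settings. The number of members higher was 38 to 50 with 1 library left out, 37 at an adjusted p under 0.01, and 44 to 53 in the other settings on all members, against 45. It was 18 of 41 among members without exon overlap. The number lower was 1 to 2 with 1 library left out, and 1 with DESeq2, at an adjusted p under 0.01 and among members without exon overlap, because NDUFA13 lost its call or was left out. Complex II had 1 to 2 members higher with 1 library left out and 1 at an adjusted p under 0.01. The members' median log2 fold change stayed between 0.17 and 0.26. With the replicate block 45 members were higher and 2 lower, as without it. Same-numbered libraries deviated together by a correlation of -0.021, -0.009 and -0.011, and differently numbered ones by -0.064 to 0.074. Such values cannot show whether same-numbered libraries were handled together. Among members not called, 14 of 37 were called in at least 1 setting, all higher. No pair of libraries agreed within sampling noise. Depth limits members with few counts (NDUFV2, NDUFA7, NDUFA13, NDUFB8), and the size of most changes lies near what 3 libraries a group can detect.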

Other observations

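Genes of neighbouring pathways were mixed. In the tricarboxylic acid cycle 5 of 13 genes (38.5%) rose and 1 fell, with a median log2 fold change of 0.12, where 20.2% of all tested genes rose and 20.7% fell. SUCLA2, of succinyl-CoA ligase, rose by 0.56 ± 0.08 (adjusted p = 2.11e-05), FH, which hydrates the fumarate made by complex II, by 0.35 ± 0.06, and IDH3B and IDH3A of NAD-linked isocitrate dehydrogenase by 0.28 ± 0.06 and 0.23 ± 0.08. For cytochrome c haem attachment and ubiquinone synthesis 3 of 12 (25%) rose and 1 fell. That share is near those of all tested genes and of tested protein-coding genes (23.6%). HCCS, which attaches haem to cytochrome c, rose by 0.30 ± 0.06, and PDSS1, which makes the ubiquinone side chain, by 0.59 ± 0.09. COQ3 rose by 0.33 ± 0.10, and COQ8B, an atypical kinase of ubiquinone synthesis, fell by 0.52 ± 0.08. NDUFAB1, the acyl carrier protein that is also a subunit of complex I, is outside the symbol patterns. It had 48.8, 53.9 and 50.9 CPM in the controls and 71.8, 76.0 and 68.6 CPM in the EV-labelled libraries, a rise of 0.49 ± 0.07 (adjusted p = 8.34e-06). NDUFA4L2, a hypoxia-induced paralog of NDUFA4, had at most 1 count in a library.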
